A study of Mus musculus with 4 samples.

Results

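Among single-cell libraries of sorted dendritic cells (DCs), 287 droplets held transcripts of a T cell and of an antigen-presenting cell (APC) under the hashtag of 1 mouse. They were taken from 10297 barcodes with exactly 1 assigned hashtag, at least 500 genes, at most 10% mitochondrial UMIs (unique molecular identifiers) and at least 5000 gene UMIs. A droplet counted as a pair if Cd3e, Cd3d and Trac, which encode chains of the T cell receptor complex, summed to at least 4 UMIs and if Cd74, the invariant chain of MHC class II, reached 5000 CPM (UMIs per 1000000 gene UMIs of the droplet). Of the pairs, 65 came from 5964 barcodes of the hCD2+ fraction and 222 from 4333 of the hCD2- fraction. The same gene limits were met by 154 of 1189 barcodes labelled Multiplet, that is, with more than 1 hashtag, 31 of them hCD2+ and 123 hCD2-. Members were chosen on RNA, so that their levels of the rule's genes are a description and carry no test.

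A dendritic cell shows peptides on MHC class II to CD4 T cells and on MHC class I to CD8 T cells, and the contact is held by adhesion molecules such as the integrin LFA-1 and its ligand ICAM-1. Conventional DCs of type 1 (cDC1) are known for cross-presentation to CD8 T cells, and those of type 2 (cDC2) for presentation to CD4 T cells. CCR7 migratory DCs carry antigen from tissue to lymph nodes. In the mesenteric lymph nodes, which drain the gut, such contacts shape tolerance to food, in part through regulatory T cells (Tregs).

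The cells came from mesenteric lymph nodes of 12 untreated mice, 15 days old, of the genotype Gm38411-iCre-hCD2 R26 tdTomato. A cassette at Gm38411 drives the recombinase iCre together with human CD2 (hCD2) as a surface reporter, and recombined cells keep tdTomato. The sort took cells with CD11c, MHC-II and tdTomato and without CD3 and B220 on their surface, and then split them into an hCD2+ and an hCD2- fraction, so that both follow a gate that is meant to leave out T cells and cells without recombination. Both fractions came from the same 12 mice, marked with 1 hashtag antibody each. Each fraction was 1 library, so that a fraction and its library cannot be told apart.

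The hCD2+ library held 178129025 gene UMIs in 8801 called cells and the hCD2- library 150904166 in 5603. The pairs were deep droplets, with a median of 56164 UMIs in the hCD2+ and 49230 in the hCD2- library. Single T cells, which met the T cell limit but not that of Cd74 (406 hCD2+ and 1148 hCD2-), had medians of 19560 and 18842 UMIs. Single APCs, which met the Cd74 limit alone (2592 and 1746), had 25958 and 29705. The libraries shared 20 barcodes, and 0 of these were pairs. Droplets of 10 to 100 UMIs, taken as free RNA, held 3388 CPM of Cd74 and 56.5 CPM of Trac in the hCD2+ library, and 5084 and 136 CPM in the hCD2- library.

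The levels of Trac and Cd74 follow from the rule and are given as a description. Levels of markers, cassette genes and tdTomato in single T cells and single APCs are over fewer cells than those limits gave. These were 358 hCD2+ and 1004 hCD2- single T cells, and 1660 hCD2+ and 1679 hCD2- single APCs. Trac was at 281 CPM in hCD2+ pairs, against 560 in single T cells and 1.92 in single APCs, and at 224 CPM in hCD2- pairs, against 659 and 4.03 (pooled over droplets). Cd74 was at 8501 CPM in hCD2+ pairs, against 954 in single T cells and 9453 in single APCs, and at 8013 CPM in hCD2- pairs, against 351 and 9959. The levels of genes outside the rule are a description as well. Izumo1r and Cd209a were among the markers chosen for these droplets, with earlier results of these data known. All 14 T cell markers outside the rule were seen in at least 10% of the pairs of each library. Of these, 5 were also seen in at least 10% of hCD2+ single APCs. Izumo1r, a folate receptor family gene of Tregs and other CD4 T cells, had a UMI in 58.5% of hCD2+ and 56.8% of hCD2- pairs. It had one in 0.0602% and 0.476% of single APCs and in 41.6% and 34.1% of single T cells. Cd209a, a C-type lectin of cDC2, had one in 29.2% and 39.2% of pairs. It had one in 4.19% and 1.99% of single T cells and in 12.3% and 15.4% of single APCs. Both kinds of single cells are shallower than pairs. Of 10 NK cell or ILC1 markers, 2 were seen in at least 10% of hCD2+ and 3 in at least 10% of hCD2- pairs, and 3 and 0 were at 0, with summed levels of 81.8 and 137 CPM. Most of that was Klrd1, a receptor chain also found on CD8 T cells, at a mean of 59.4 and 112 CPM over mice, while Ncr1 was at 0 and 1.47 CPM. Of 7 B cell markers, 1 and 2 were seen in at least 10% of pairs and 4 and 1 were at 0 (summed 18.3 and 18.4 CPM). Among them Cd79a was at 0 and 0.776 CPM, and Ms4a1 had a UMI in 6.15% of hCD2+ and 10.4% of hCD2- pairs. None of 6 gamma-delta T cell markers was seen in 10% of pairs (summed 2.45 and 3.28 CPM). The part of such cells in the results was not tested.

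Few droplets lay near the T cell limit on its inner side: 1 hCD2+ and 1 hCD2- pair had 4 or 5 UMIs of the 3 genes, and the medians were 25 and 24. Just outside, 18 hCD2+ and 53 hCD2- droplets had 2 or 3. The Cd74 limit cut through a denser range. Between 5000 and 6000 CPM lay 8 hCD2+ and 39 hCD2- pairs, and 18 and 27 droplets lay between 4000 and 5000. The smallest pair held 19386 UMIs in the hCD2+ and 18225 in the hCD2- library, far above the floor of 5000.

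Pairs were rarer in the hCD2+ fraction of every mouse. They made up 0% to 2.17% of the hCD2+ cells of a mouse (median 0.954%, 0 to 14 pairs) and 2.5% to 8.08% of the hCD2- cells (median 4.48%, 6 to 38 pairs). The ranges did not overlap. The mean was 1.03% ± 0.683 against 4.96% ± 2.13 (SD, n = 12 mice each), a difference of -3.93 percentage points, with a lower share in hCD2+ cells in 12 of 12 mice (two-sided permutation test, p = 2e-05, the smallest that these permutations can give). An exact permutation test that flips signs within mice gave p = 0.000488. Single T cells were also fewer in the hCD2+ library (406 of 5964 cells, against 1148 of 4333 in the hCD2- library), and their part in the difference was not tested.

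**Figure D1:**
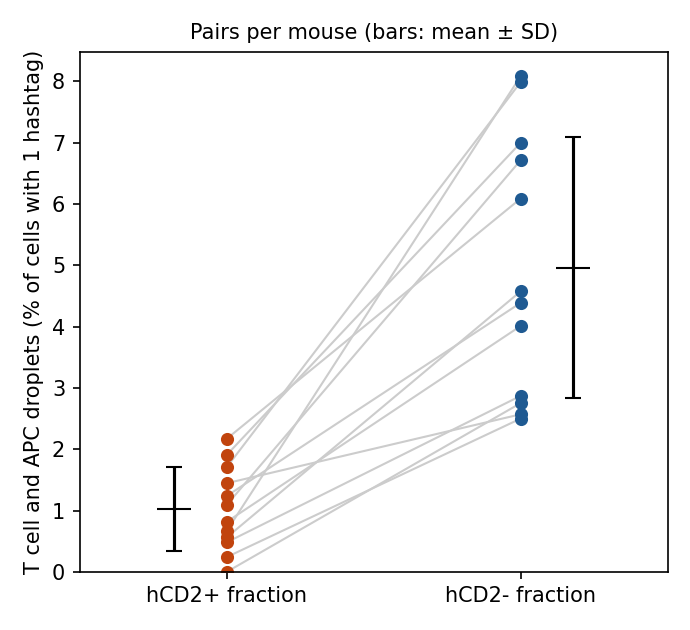
Share of single-hashtag cells that were T cell and APC pairs, in percent, for each of 12 mice in the hCD2+ and hCD2- fractions, with lines joining the same mouse. Every mouse lies lower in the hCD2+ fraction, where the highest value is 2.17%, than in the hCD2- fraction, where the lowest is 2.5%.

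To ask which cells made up a pair, each droplet was fitted as a mixture of 2 of 29 cluster profiles, without the rule's genes and the cassette. The fit gave a T cell and an APC in 63 of 65 hCD2+ pairs and in 221 of 222 hCD2- pairs. Among Multiplets that met the same gene limits it did so in 22 of 31 and 93 of 123. The T cell's part of the UMIs had a median of 29.99% in hCD2+ and 32.9% in hCD2- pairs, and of 31.3% and 32.9% in Multiplets. The clusters are named from marker transcripts, by a rule set after clustering, and the names are meant as "-like". For comparison, single-hashtag droplets outside the rule were given the class of their best single profile, whichever limit they met: 363 hCD2+ and 1014 hCD2- single T cells, and 2346 and 2428 single APCs. A cluster led by Nrg1 and Ncam1, left unnamed with under 3 markers of any class, was counted with the APCs throughout. It took 2 hCD2+ and 1 hCD2- pairs, and 253 and 159 of the single APCs (10.8% and 6.55%).

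On the T cell side, CD4 T cells dominated the pairs. They were 37 of 63 hCD2+ pairs (58.7%, 95% Wilson interval 46.4% to 70.0%) and 153 of 221 hCD2- pairs (69.2%, 62.9% to 74.9%). These intervals, here and below, cover counting error only. Among single T cells, CD4 cells made up 17.6% in the hCD2+ and 29.9% in the hCD2- library. Counted per mouse with at least 5 fitted pairs, CD4 cells were 63.2% ± 10.04 of hCD2+ pairs against 19.7% ± 5.29 of single T cells (SD, higher in 6 of 6 mice). In the hCD2- library the values were 69.9% ± 11.2 against 29.1% ± 6.55 (higher in 12 of 12 mice). The lowest hCD2- mouse had 52.6% CD4 cells in its pairs, and the highest single-cell share of a mouse was 36.4%.

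Tregs, which carry Foxp3 and restrain immune responses, were 8 of 63 hCD2+ pairs (12.7%) and 35 of 221 hCD2- pairs (15.8%), against 7.71% and 5.82% of single T cells. By mouse their share in pairs was higher than in single T cells in 2 and lower in 3 of 6 mice of the hCD2+ library, and higher in 9 and lower in 3 of 12 mice of the hCD2- library. CD8 T cells went the other way: 6 hCD2+ pairs (9.52%) and 21 hCD2- pairs (9.50%) held one, against 30.6% and 35.996% of single T cells. Their share in pairs was lower in 6 of 6 and 12 of 12 mice. Memory-like CD8 T cells, with Ccl5 and Nkg7 among their markers, were in 2 hCD2+ pairs (3.17%) and 3 hCD2- pairs (1.36%), against 19.3% and 19.6% of single T cells. A cluster of T cells with both Cd4 and Cd8b1 was left unresolved and took 10 hCD2+ pairs (15.9%) and 9 hCD2- pairs (4.07%). It is led by Bcat1, Crtam and Ccl20, with Xcl1 and Rrm2 also among its leading genes. In hCD2+ pairs the match to it was partial. Over all 63 fitted hCD2+ pairs Xcl1 was at 0 CPM, where the fitted mixture gave 71.8 (above it in 0 of 6 mice).

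On the APC side most pairs held a cDC1 or a cDC2. cDC2 were 27 of 63 hCD2+ pairs (42.9%, 31.4% to 55.1%) and 134 of 221 hCD2- pairs (60.6%, 54.1% to 66.8%), against 7.54% and 36.5% of single APCs. cDC1 were 25 hCD2+ pairs (39.7%, 28.5% to 52.0%) and 71 hCD2- pairs (32.1%, 26.3% to 38.5%), against 3.62% and 10.9% of single APCs. By mouse, cDC1 were 44.96% ± 24.99 of hCD2+ pairs against 3.76% ± 1.00 of single APCs (higher in 6 of 6 mice), and 35.6% ± 10.8 of hCD2- pairs against 10.6% ± 2.85 (higher in 12 of 12 mice). cDC2 had a higher share in pairs in 6 of 6 mice of the hCD2+ and 10 of 12 mice of the hCD2- library.

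The other APCs were scarce in pairs. CCR7 migratory DCs were 7 hCD2+ pairs (11.1%, 5.49% to 21.2%) and 14 hCD2- pairs (6.33%, 3.81% to 10.4%), against 32.7% and 39.7% of single APCs, and lower in 6 of 6 and 12 of 12 mice. The DCs marked by Prdm16 or Aire, a zinc-finger factor and the regulator of tissue antigens in the thymus, were the largest class of single APCs in the hCD2+ library (39.9%). They were in 2 of 63 hCD2+ pairs (3.17%, 0.875% to 10.9%) and lower in pairs in 6 of 6 mice. Their cluster led by Pigr took 0 of 63 hCD2+ pairs, against 26.4% of hCD2+ single APCs, and that led by Ldb2 and Asprv1 took both pairs, against 13.4%. At the level of genes, Prdm16 was at 24.5 CPM in hCD2+ pairs against 1630 in single APCs, and Aire at 6.27 against 98.3. Gm38411, where the cassette sits, was at 0.818 CPM in hCD2+ pairs, against 49.8 in hCD2+ single APCs, and hCD2 itself at 1.36 against 44.8. In hCD2+ single T cells Gm38411 was at 3.02 and hCD2 at 2.04 CPM. These single APCs are of all classes and were not matched to the classes found in pairs. Plasmacytoid DCs were in none of 63 hCD2+ and none of 221 hCD2- pairs, where a count of 0 leaves Wilson upper bounds of 5.75% and 1.71%, against 1.28% and 4.08% of single APCs.

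The Cd74 limit applies to the whole droplet and so selects among APCs, since the T cell dilutes them. Single APCs with at least 10000 CPM of Cd74, a limit chosen after the values were seen, held 12.0% cDC1, 14.8% cDC2, 31.3% CCR7 DCs and 38.6% Prdm16 or Aire DCs in the hCD2+ library. In the hCD2- library they held 24.9% cDC1, 49.0% cDC2 and 24.4% CCR7 DCs. The pairs held more cDC1 and cDC2 and fewer CCR7 DCs than these cells in both libraries, by smaller gaps than against all single APCs.

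**Figure D2:**
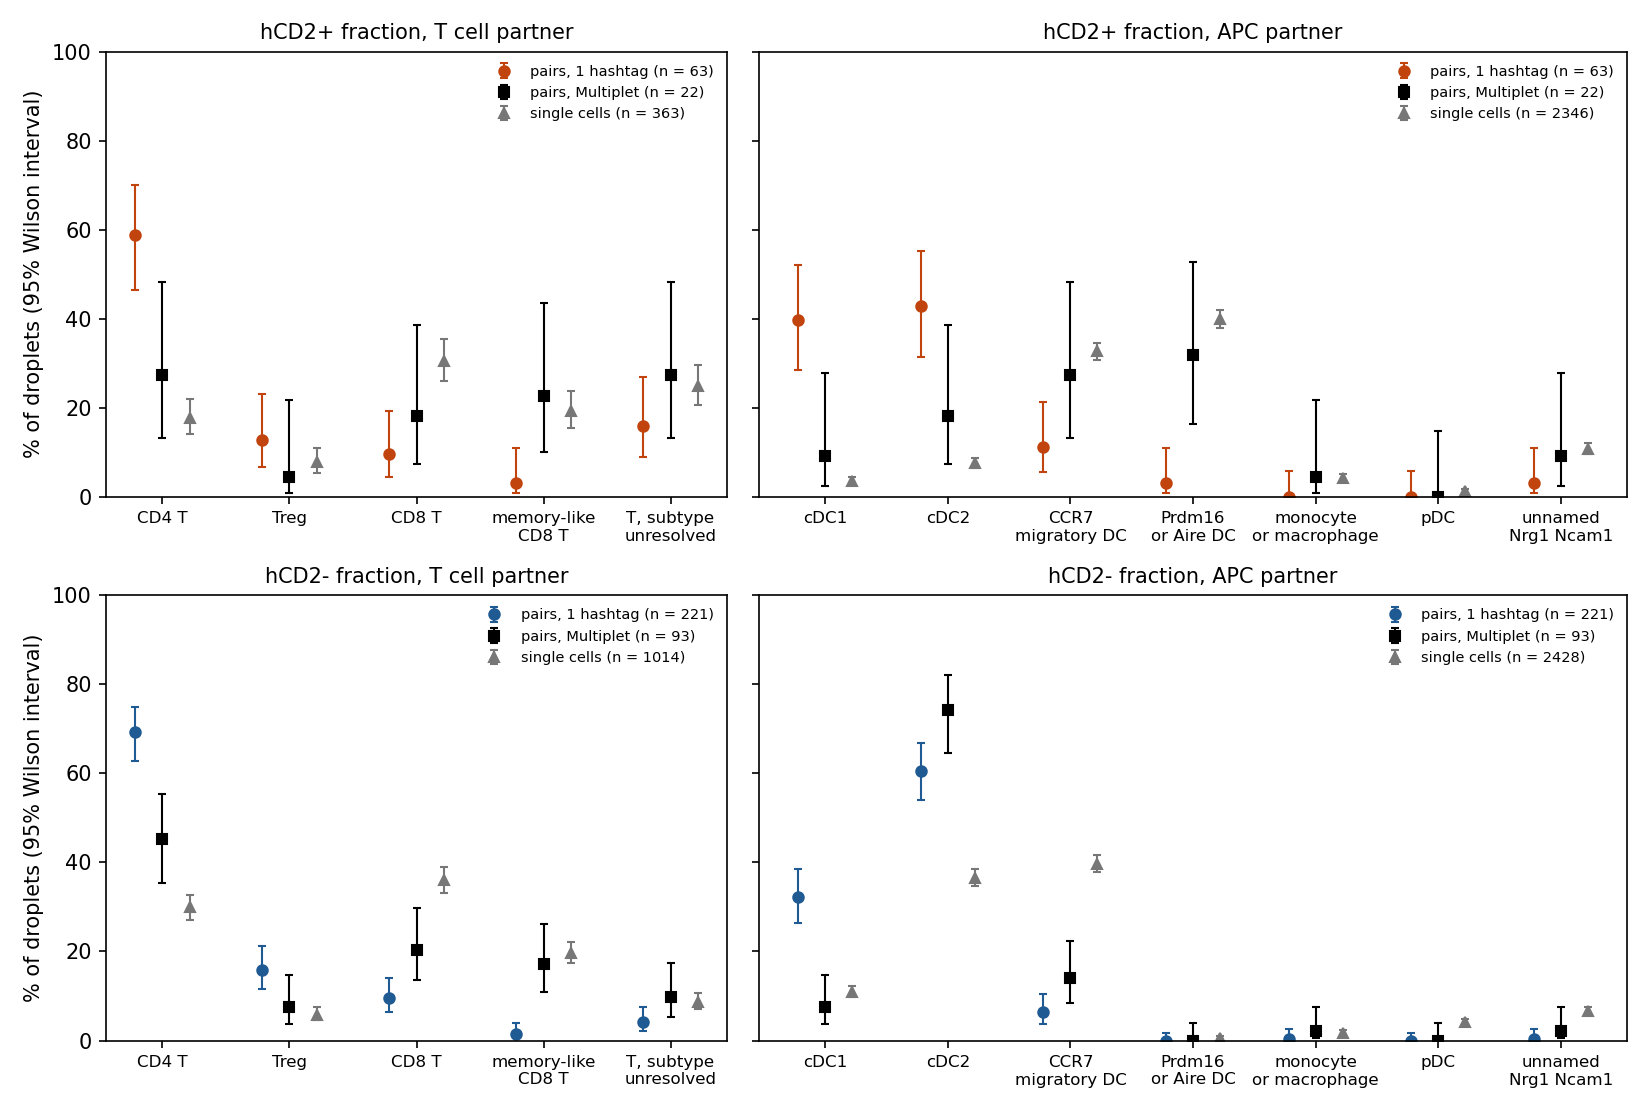
Classes of the T cell (left) and the APC (right) in percent, for single-hashtag pairs, Multiplets meeting the same gene limits and single cells of each library; bars are 95% Wilson intervals of the shares. CD4 T cells, cDC1 and cDC2 have larger shares in single-hashtag pairs than in single cells, and CD8 T cells and CCR7 migratory DCs smaller ones.

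Within cDC2, a cluster led by Retnla, Cyp7b1 and Dab2, in which Cd209a is also among the leading genes, took 14 of 63 hCD2+ pairs (22.2%), against 2.26% of single APCs, and 68 of 221 hCD2- pairs (30.8%), against 5.81% of single APCs (141 cells). A cluster led by Adgrl3, Sirpb1a and Ctnnd2 took 5 of 63 hCD2+ pairs (7.94%), against 2.64% of single APCs, and 53 hCD2- pairs (24.0%), against 26.2% of single APCs (637 cells). In hCD2- Multiplets the shares of the Retnla and the Adgrl3 clusters were 20.4% and 37.6%. Among cDC1, 51 hCD2- pairs (23.1%) fell to a cluster led by Rab7b, Xcr1 and Naaa, which encode an endosomal GTPase, a chemokine receptor and a lipid hydrolase. The match to the Retnla cluster was partial, since Cyp7b1, an oxysterol hydroxylase, was at 22.7 CPM in hCD2- pairs where the fitted mixture gave 90.6 (below it in 12 of 12 mice).

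By combination, the commonest hCD2- pairs were CD4 T cell with cDC2 (92 droplets) and CD4 T cell with cDC1 (51). Treg with cDC2 followed with 19, CD8 T cell with cDC2 with 15, Treg with cDC1 with 13, CD4 T cell with CCR7 DC with 10 and CD8 T cell with cDC1 with 5. In the hCD2+ library CD4 T cell with cDC1 came to 18, CD4 T cell with cDC2 to 12, an unresolved T cell with cDC2 to 7 and CD4 T cell with CCR7 DC to 5.

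Between the fractions the partner classes could not be told apart at this number of pairs. Of 11 classes compared between 6 hCD2+ and 12 hCD2- mice, none passed (two-sided exact permutation tests, smallest adjusted p = 0.418). cDC2 made up 41.3% ± 24.9 of hCD2+ and 57.6% ± 11.4 of hCD2- pairs (exact permutation p = 0.0760, adjusted p = 0.418). Unresolved T cells made up 12.7% ± 10.4 and 4.07% ± 4.83 (exact permutation p = 0.0390, adjusted p = 0.418). For cDC1 the shares were 44.96% ± 24.99 and 35.6% ± 10.8 (exact permutation p = 0.284, adjusted p = 0.782), with a spread in hCD2+ mice that runs from 16.7% to 80.0%.

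Set beside Multiplets with the same gene limits, single-hashtag pairs had another make-up. In the hCD2- library cDC1 were 32.1% of pairs and 7.53% of Multiplets (3.69% to 14.7%), while cDC2 were 60.6% and 74.2% (64.5% to 82.0%). CD4 T cells were 69.2% of hCD2- pairs and 45.2% of Multiplets (35.4% to 55.3%). Memory-like CD8 T cells were 1.36% of hCD2- pairs and 17.2% of Multiplets, and CD8 T cells 9.50% and 20.4%. In the hCD2+ library Prdm16 or Aire DCs were 2 of 63 pairs and 7 of 22 Multiplets (31.8%), cDC1 25 of 63 pairs and 2 of 22 Multiplets, and CD4 T cells 37 of 63 pairs and 6 of 22 Multiplets. A Multiplet has no mouse, so that these differences carry no test.

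The same counts can be read as the share of T cell and APC droplets that bear 1 hashtag. It was 67.7% of rule-defined droplets in the hCD2+ library (65 of 96, 57.8% to 76.2%) and 64.3% in the hCD2- library (222 of 345, 59.2% to 69.2%). If 2 cells were drawn at random from the single-hashtag cells of a library, they would bear the same hashtag in 8.91% of hCD2+ and 8.95% of hCD2- draws. The shares by class are over droplets fitted as a T cell and an APC. Of all these, 74.1% (63 of 85) bore 1 hashtag in the hCD2+ and 70.4% (221 of 314) in the hCD2- library. By class, droplets with cDC1 bore 1 hashtag in 92.6% (25 of 27) in the hCD2+ library and in 91.0% (71 of 78) in the hCD2- library. For cDC2 these shares were 87.1% and 66.0%, and for CCR7 DCs 53.8% (7 of 13) and 51.9% (14 of 27). Prdm16 or Aire DCs were at 22.2% (2 of 9) in the hCD2+ library.

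By T cell class, 1 hashtag was found in 86.0% of hCD2+ and 78.5% of hCD2- droplets with a CD4 T cell and in 88.9% and 83.3% of those with a Treg. With a CD8 T cell it was 60.0% and 52.5%, and with a memory-like CD8 T cell 28.6% (2 of 7) and 15.8% (3 of 19). Droplets that met the Cd74 limit and were fitted as an NK cell or ILC1 and an APC bore 1 hashtag in 0 of 3 and 2 of 23 (8.70%). Chosen by NK genes and Cd74 without the fit, 61.3% (19 of 31) and 56.1% (32 of 57) bore 1 hashtag. Of those with 1 hashtag, the fit gave 1 cell in 15 of 19 and 32 of 32.

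**Figure D3:**
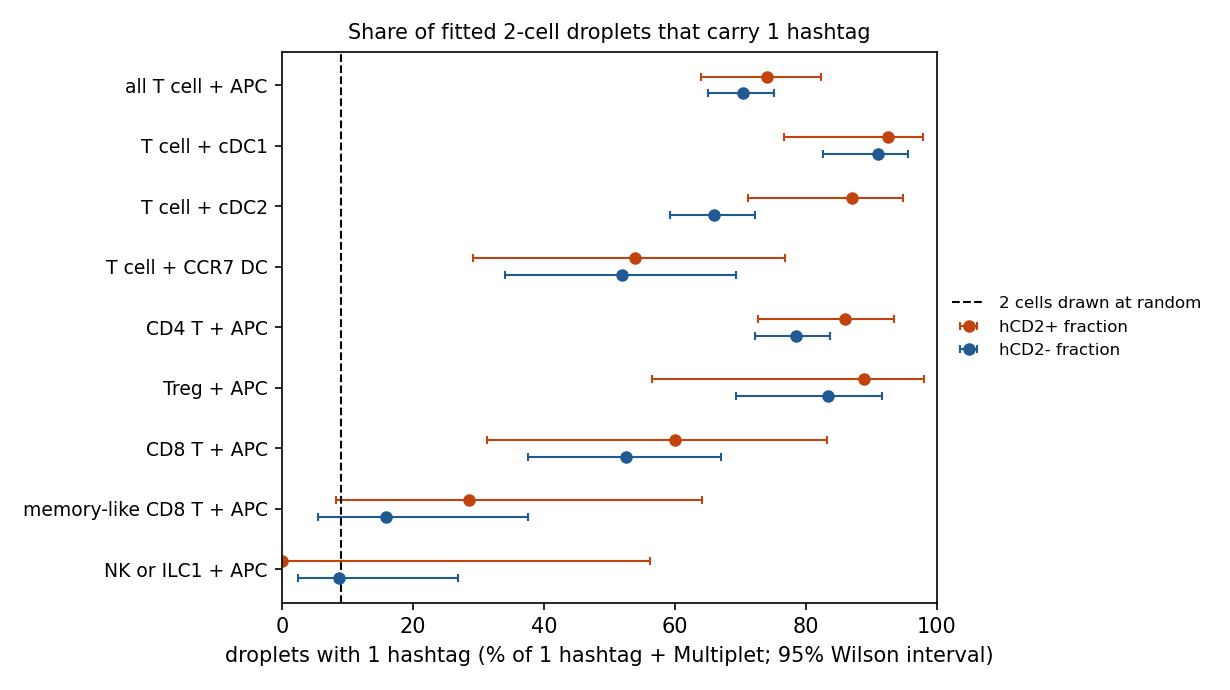
Percent of droplets fitted as a T cell and an APC that bore 1 hashtag, over all and by APC class and T cell class. The last row holds droplets fitted as an NK cell or ILC1 and an APC. Values are for the hCD2+ and hCD2- libraries, with 95% Wilson intervals and the share for 2 cells drawn at random. Droplets with cDC1 lie above 90% in both libraries and those with memory-like CD8 T cells below 30%.

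Hashtag antibodies count the surface that was labelled, which the gene limits did not use. The median hashtag UMIs of a mouse's hCD2+ pairs ran from 5817 to 18211 (median 7416) over 7 mice with at least 5 pairs, and averaged 9785 ± 5094 (SD), against 4057 ± 1751 in single T cells and 4698 ± 3253 in single APCs. In the hCD2- library they ran from 4429 to 19381 over 12 mice and averaged 8415 ± 5064, against 4327 ± 2510 and 5603 ± 3578. Pairs were higher than either kind of single cell in 7 of 7 and 12 of 12 mice. Against single T cells the difference passed in both libraries (two-sided permutation tests, exact with 7 mice; adjusted p = 0.00839 for hCD2+ and 0.0242 for hCD2-, over 12 tests). Against single APCs it did not (exact permutation, adjusted p = 0.0769 for hCD2+; permutation, adjusted p = 0.179 for hCD2-), but with signs flipped within mice it did (adjusted p = 0.0208 and 0.00146).

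Relative to the sum of the medians of 1 single T cell and 1 single APC, hCD2+ pairs carried 1.13 ± 0.225 and hCD2- pairs 0.860 ± 0.111 times the hashtag UMIs (SD, n = 7 and 12 mice). Set against the sum of the means of single cells of their own 2 classes, the ratio of hCD2+ pairs was 4.31 ± 7.34 by mouse (SD, n = 6, median 1.01, highest 19.2) and that of hCD2- pairs 1.27 ± 0.809 (n = 12, median 0.901). Pooled, it was 2.95 in hCD2+ and 1.24 in hCD2- pairs, and 3.75 and 2.75 in Multiplets.

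The tdTomato transcript, by whose protein the cells were sorted, was lower in pairs than in single T cells and in all single APCs of the same library. It ran from 67.9 to 176 CPM (median 100) in hCD2+ pairs of a mouse and averaged 114 ± 34.1, against 190 ± 25.5 in single T cells and 215 ± 32.0 in single APCs (SD, n = 7 mice). In hCD2- pairs it ran from 122 to 194 CPM (median 149) and averaged 150 ± 22.5, against 358 ± 25.1 and 298 ± 25.3 (n = 12 mice). The hCD2- pairs did not overlap with either kind of single cell, while the highest hCD2+ mouse did. Single cDC1, cDC2 and CCR7 cells of the hCD2+ library averaged 147 ± 39.2 CPM (79.9 to 187), a range that the hCD2+ pairs overlapped. By class, hCD2+ pairs with a cDC1 were at 113 CPM, against 84.6 in single cDC1, and those with a cDC2 at 118, against 117 in single cDC2. Pairs were lower in 7 of 7 and 12 of 12 mice (two-sided permutation tests, exact with 7 mice; adjusted p = 0.00699 against T cells and 0.00466 against APCs for hCD2+, and 0.00012 against both for hCD2-). These tests were added after the data were seen.

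Counted per droplet, hCD2- pairs held a mean of 7.95 tdTomato UMIs, close to a single cell: hCD2- single T cells held 7.42 and single APCs 9.63. hCD2- Multiplets held 18.8. Since classes differ in tdTomato, each pair was set against the sum of the means of single cells of its own 2 classes and library. hCD2- pairs had 0.479 of that sum (7.95 UMIs against 16.6), and hCD2- Multiplets 0.993 (16.8 against 16.9). The gene UMIs of hCD2- pairs were at 0.992 of the sum, and those of hCD2- Multiplets at 1.41. In the hCD2+ library pairs had 0.770 of the tdTomato sum (7.33 against 9.52) and Multiplets 0.799, with gene UMIs at 0.891 and 0.676.

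By mouse the tdTomato ratio was 0.401 to 0.949 in hCD2+ pairs (mean 0.722 ± 0.194, SD, n = 6) and 0.376 to 0.617 in hCD2- pairs (mean 0.471 ± 0.0728, n = 12), below 1 in 6 of 6 and 12 of 12 mice. The ranges overlapped in hCD2+ mice 2 (0.401) and 1 (0.613). The ratio was 0.251 higher in hCD2+ pairs (two-sided exact permutation test, p = 0.00302, adjusted p = 0.00603 over 2 measures), but within the 6 mice with both values the sign flips gave an exact p of 0.0625, the call being lost. Gene UMIs over their sum were 0.922 ± 0.131 and 0.984 ± 0.0822 (exact permutation p = 0.233). By class, hCD2+ pairs with a cDC1 held 6.68 tdTomato UMIs, against 3.79 in single cDC1, while hCD2- pairs with a cDC1 held 7.66, against 9.85. The cause of the low tdTomato was not tested.

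**Figure D4:**
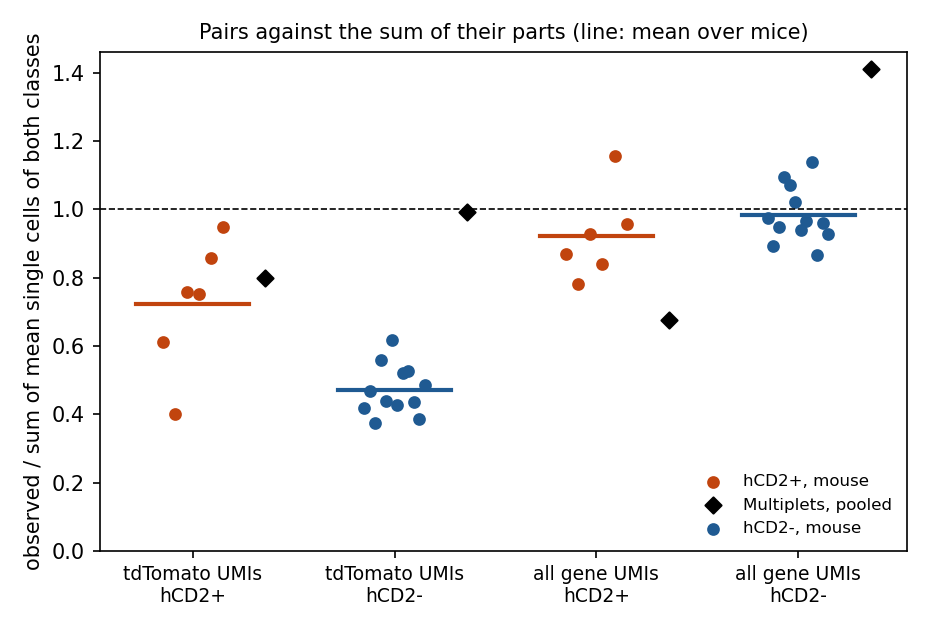
tdTomato UMIs and gene UMIs of T cell and APC droplets as a ratio to the sum of single cells of the same 2 classes, by mouse for pairs of each library and pooled for Multiplets. In hCD2- pairs the gene UMIs lie near 1 (mean 0.984) and the tdTomato UMIs lie between 0.376 and 0.617.

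Whether paired cells differ from the same cells alone was asked by setting the pooled pairs against the fitted mixture of single-cell profiles. At 50 CPM or more in either, 4107 genes in hCD2+ and 4008 in hCD2- pairs had median ratios of 0.997 and 1.01. In hCD2- pairs 7 genes (0.175%) lay over 1.5 times the mixture and 30 (0.749%) under its inverse, with 1 CPM added to both. In hCD2+ pairs these were 30 (0.730%) and 55 (1.34%). The fit and this comparison use the same droplets, so that the ratios are a description with no test. The profiles pool cells of both libraries.

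The genes that report T cell receptor signals lay on both sides of the mixture. Genes named from these ratios were picked after the values were seen. Of the list's 16 genes, 7 reached the level in hCD2- pairs, with ratios of 0.814 to 1.16 (median 1.04), and 9 in hCD2+ pairs, with ratios of 0.663 to 1.26 (median 0.971). The lowest in hCD2+ pairs was Tnfrsf9, the costimulatory receptor 4-1BB, at 33.8 CPM against 51.6 (below in 6 of 6 mice), the 1 gene of the 9 past the inverse of 1.5. Nr4a1, an early response factor, was at 366 CPM in hCD2- pairs against 353 in the mixture. Egr1, another, was at 242 against 209, and Cd69, an early activation marker, at 72.2 against 88.8. Adhesion genes had medians of 1.04 in hCD2+ and 1.07 in hCD2- pairs over 10 genes each. Among them the LFA-1 chain Itgb2 was at 141 CPM in hCD2- pairs against 126 (above in 12 of 12 mice), and Icam1 was at 226 against 212. MHC class II genes had medians of 1.21 in hCD2+ and 1.12 in hCD2- pairs, a list that holds the rule's Cd74. Costimulatory and checkpoint ligands had medians of 1.04 and 0.962. Within them Tnfsf9, the 4-1BB ligand, was at 131 CPM in hCD2- pairs against 81.6 (above in 8 of 12 mice), and Cd86, a CD28 ligand, at 487 against 600 (above in 3 of 12).

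Several of the genes outside the range are markers of DC subsets. Cd209a was at 76.6 CPM in hCD2- pairs against 40.1 in the mixture (above in 12 of 12 mice). Ccr2, a chemokine receptor of monocytes and some cDC2, was at 141 against 91.96 (10 of 12). It alone lay above the range among 3 monocyte or macrophage genes at the level in hCD2- pairs, whose median ratio was 0.852. Ccl17 and Ccl22, chemokines that draw CCR4-bearing T cells, were at 97.0 against 35.7 and 168 against 108, each above in only 3 of 12 mice. They alone lay above the range among 6 CCR7 migratory DC genes at the level in hCD2- pairs, whose median ratio was 0.905. Ccl17 ran from 0 to 278 CPM over the hCD2- mice with a median of 2.73, so that its pooled level rests on a few mice. Below the mixture lay Ccl5 at 92.5 against 234 (below in 12 of 12 mice), Cxcl9 at 108 against 231 (below in 10 of 12), and the cDC1 genes Cadm1 at 87.7 against 183 and Xcr1 at 65.1 against 103. These were 2 of 8 cDC1 genes at the level in hCD2- pairs, whose median ratio was 0.865, and in hCD2+ pairs 0 of 8 lay below the range (median 0.995). The hemoglobin genes were far below: Hbb-bs was at 2.95 CPM against 175 and Hba-a1 at 0.608 against 61.4 in hCD2- pairs, each below in 12 of 12 mice. In hCD2- Multiplets Hbb-bs was at 2.49 against 193. tdTomato was at 153 against 269 in hCD2- pairs, below in 12 of 12 mice. In hCD2+ pairs Nlrp3, an inflammasome sensor, was at 89.8 against 38.0 (above in 6 of 6 mice), Cd209a at 97.9 against 27.97 (4 of 6) and Retnla at 110 against 32.7 (1 of 6).

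**Figure D5:**
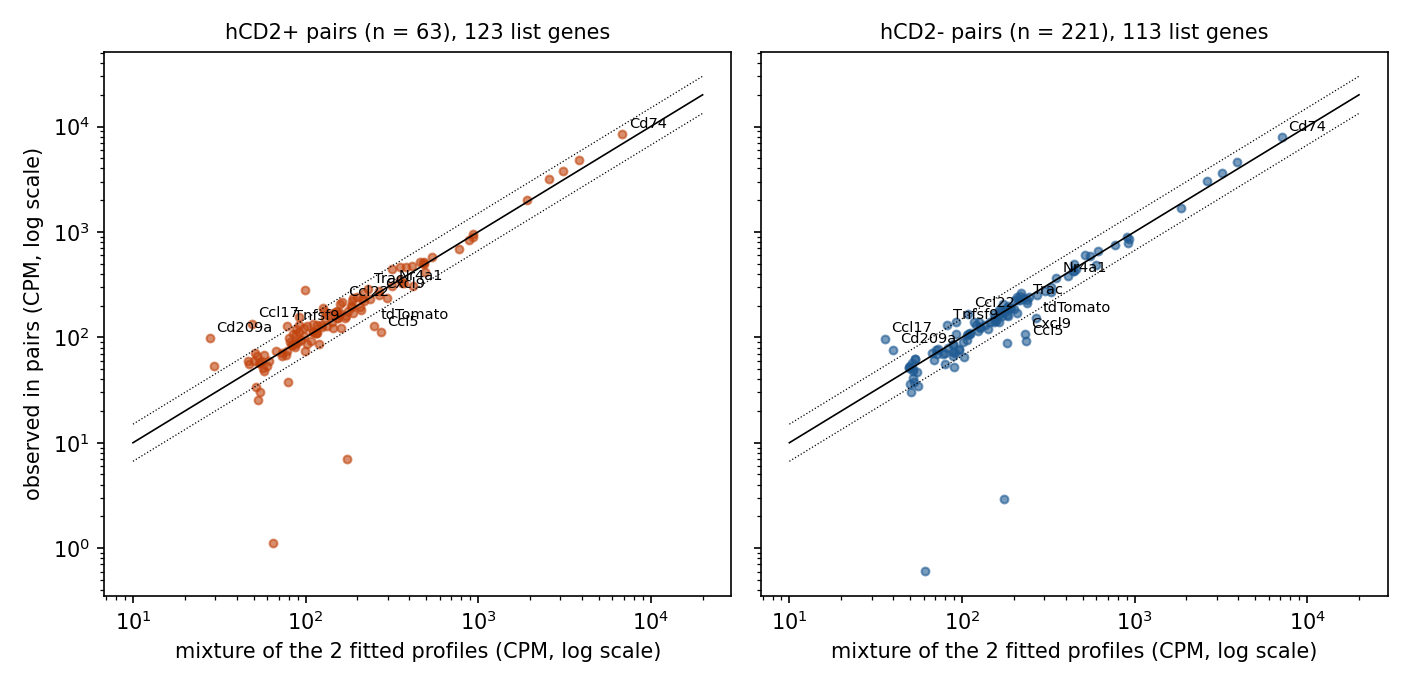
Pooled level in pairs against the level in the fitted mixture of single cells, for genes of the marker and function lists that reached 50 CPM in either. Axes are CPM on a log scale, for the hCD2+ and hCD2- libraries, with lines at 1.5 times and its inverse. Most of these list genes lie along the diagonal, and tdTomato lies below it in both libraries (153 against 269 CPM in hCD2- pairs).

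Genes of the pairs were last compared between the fractions, over 7 hCD2+ and 12 hCD2- mice. Of 7967 genes tested, edgeR's quasi-likelihood test with Benjamini-Hochberg adjustment called 184 (2.31%), 126 higher (1.58%) and 58 lower (0.728%) in hCD2+ pairs. In 26 genes (0.326%) the 2 groups of mice did not overlap. With mouse as a block, which 7 mice with both arms allow, 24 genes were called, 23 of them among the 184.

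Of the proliferation list 4 of 12 genes were called higher and 0 lower, where 1.58% of all genes tested were called higher, with a median log2 difference of 1.47 against 0.00687 over all genes. Birc5, which encodes survivin of the dividing cell, was at 40.8 to 192 CPM in hCD2+ pairs (median 106) and at 6.27 to 87.5 CPM in hCD2- pairs (median 38.4), so that the groups overlapped. It differed by 1.59 ± 0.34 on the log2 scale (SE, adjusted p = 0.0164 by edgeR's quasi-likelihood test). Ccnb2, a mitotic cyclin, averaged 61.2 against 17.3 CPM (1.71 ± 0.44, edgeR adjusted p = 0.0412) and Cdk1, its kinase, 61.4 against 21.8 CPM (1.55 ± 0.40, edgeR adjusted p = 0.0423). Tpx2, a spindle factor, followed (1.40 ± 0.37, edgeR adjusted p = 0.0449). Outside the list Cenpe, a kinetochore motor (1.81), Cdca3 (1.81), Prc1, a midzone protein (1.49), Spc24, a kinetochore subunit (1.39), and Cks2, a CDK partner (1.09), were called higher as well. Each of these genes was higher in 6 of 7 mice with both arms.

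With mouse as a block none of the 4 list genes kept its call (edgeR adjusted p from 0.126 to 0.289). The same contrast in single cells, added after the data were seen, called all 12 proliferation genes higher in hCD2+ single T cells (median log2 1.98), where 21.2% of all tested genes were called higher. In single cDC1 and cDC2 it called 11 of 12 (median 1.12), where 9.06% were. A cDC2 cluster led by the division genes Iqgap3, Cenpf and Nusap1 took 8 of 63 hCD2+ pairs (12.7%) and 13 of 221 hCD2- pairs (5.88%). The unresolved T cell cluster, with Rrm2 of the proliferation list among its leading genes, took 10 of 63 hCD2+ and 9 of 221 hCD2- pairs. The part of these clusters in the difference, and that of the other classes, was not tested.

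Plxdc2, a transmembrane receptor gene, was higher in 7 of 7 mice: 52.8 to 184 CPM in hCD2+ pairs (median 147), against 16.3 to 133 CPM in hCD2- pairs (median 45.8). The difference was 1.40 ± 0.31 (edgeR adjusted p = 0.0208), and 1.67 with mouse as a block (edgeR adjusted p = 0.0240). Polr2l, a subunit shared by the RNA polymerases, had groups that did not overlap: 5.04 to 20.6 CPM in hCD2+ pairs (median 8.60), against 29.5 to 53.2 CPM in hCD2- pairs (median 38.8). It fell by 1.79 on the log2 scale (SE 0.23, edgeR adjusted p = 3.68e-05; with the block -1.75, edgeR adjusted p = 0.0160). Eno1, a glycolytic enzyme (-0.79), Atp5k, a subunit of ATP synthase (-0.68), and Pet100, an assembly factor of cytochrome oxidase (-0.72), were lower in 7 of 7 mice. Cd7 (-1.27) and the phosphatase gene Ptpn3 (-1.52) were lower in 6 and 7 of 7 mice, as were Cd244a (-0.79), Pdcd11 (-0.78), Dclre1c (-0.78) and Dock4 (-0.73) in 7 of 7. Of 21 called genes named here for the fractions, Plxdc2 and Polr2l alone kept their call with mouse as a block, and the other 19 lost it.

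In lists that bear on the contact no gene was called between the fractions. Of all 7967 genes 184 (2.31%) were called, so that 0 calls in lists of this size lie near the background. An unadjusted p under 0.05 was reached by 1281 of the 7967. The lists were T cell receptor response (0 of 13 tested, 3 at an unadjusted p under 0.05), costimulatory and checkpoint ligands (0 of 9, 0 unadjusted), their receptors (0 of 10, 0), adhesion (0 of 10, 0), MHC class II (0 of 11, 4) and MHC class I (0 of 10, 4). The unadjusted share lay above that of all genes in both MHC lists and the T cell response list, and was 0 in the others. The 4 of MHC class II include the rule's Cd74, whose level carries no test. Nfkbid, an inhibitor of NF-kB activity, was the T cell response gene of smallest p (log2 -0.53 ± 0.20, edgeR adjusted p = 0.180). Aldh1a2, which makes retinoic acid, was at log2 1.39 ± 0.52 (edgeR adjusted p = 0.174), the only gene of the Treg induction list under an unadjusted p of 0.05. Lyz2, lysozyme of macrophages and some DCs, was called higher (2.32 ± 0.60, edgeR adjusted p = 0.0428). It rested on mouse 4, with 3191 CPM in 5 hCD2+ pairs against 47.0 to 357 in the other hCD2+ mice, and without that mouse its difference was 0.378.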

How the data were processed

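The deposited matrices hold, for each barcode, raw UMI counts of genes and hashtags, with no cell filter, made by the authors with Cell Ranger 8.0.1 on mm10, per the file headers and the submitters' processing notes. The deposited assignment tables give each called cell's hashtag state and the posterior of a multiplet, a fraction from 0 to 1. CPM, UMIs per 1000000 gene UMIs, was computed here. Members and gene lists were chosen with earlier results of these data known.

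Single-hashtag cells were clustered, leaving out the pairs and droplets near them (2 or more T cell UMIs with Cd74 at 2500 CPM or more), with scanpy 1.11.5 and leidenalg 0.10.2 (2000 variable genes, 30 components, 15 neighbours, resolution 1.5) into 32 clusters. Droplets were fitted as multinomial mixtures of 2 cluster profiles in steps of 5%, the smaller part at least 10%. No doublet caller was run, as doublets are the subject. Counts summed per mouse with at least 5 pairs were fitted with edgeR 4.0.16 (R 4.3.3; TMM, filterByExpr), and DESeq2 1.42.0 was an alternative. Permutation tests used 100000 permutations, or all with under 10 mice in an arm. Genes with an adjusted p under 0.05 were called. Scripts were tested on simulated data.

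Genes named were those of the rule, the marker and function lists, and, among called genes averaging a log2 CPM of 5 or more whose direction at least 3 in 4 paired mice shared, the top 10 by fold on each side, leaving aside predicted, ribosomal, mitochondrial, immunoglobulin and sex-linked marker genes. The same hashtag marks the same mouse in both fractions. As a check, deviations from the fraction's mean over 5612 genes, which are not independent replicates, correlated at -0.08 to 0.36 between same-numbered pairs of 7 mice. The best match of an hCD2+ mouse among the hCD2- mice had its own number for mice 5 and 6 alone. The check thus does not settle the pairing, on which the block and the sign flips between the fractions rest. Sign flips of pairs against single cells stay within a library and its hashtags, and do not rest on it. Other settings tried were the limits of the rule, the smaller part, the floor of droplets per mouse, the gene filter, the mouse as a block and leaving out each mouse. Chosen after seeing the data were a posterior limit of 0.001, single cDC1, cDC2 and CCR7 cells alone for hashtags, the Cd74 limit of 10000 CPM for single APCs, and the tdTomato tests. Not analysed here were the Blank and Unassigned cells, of which 0 and 3 met the gene limits.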

Additional observations from a re-analysis of the deposited data

Results flagged for a closer look

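Of 36 sets of mouse values looked at, all of hCD2+ pairs, 2 held a mouse far from the others, where chance flags about 1 in 20. The sets of hCD2- pairs, with 12 mice each, were not looked at in this way. Lyz2 stood at 3191 CPM in the hCD2+ pairs of mouse 4, against 47.0 to 357 CPM in the other 6 mice. The median UMIs of hCD2+ pairs were 68837 in mouse 8, against 50865 to 58510 in the other 6 mice. Another result was a difference between the fractions: the tdTomato UMIs of pairs over the sum of single cells of the same classes were 0.251 higher in hCD2+ than in hCD2- pairs (0.722 and 0.471, two-sided exact permutation p = 0.00302), where 6 hCD2+ mice entered. Neither its cause nor that of the outlying mice was tested.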

How the results depend on the processing

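The lower share of pairs in hCD2+ cells kept its direction and its call under every setting run for it: -0.50 to -4.82 percentage points under other limits on T cell UMIs, Cd74 and total UMIs, the smallest with Cd74 at 10000 CPM (permutation p = 0.0162), and -4.19 to -3.62 without 1 mouse each. Partner classes between the fractions did not pass under any setting run. Signs changed for the unnamed Nrg1 and Ncam1 cluster at 10 or more pairs per mouse (-0.329 points) and monocytes or macrophages under the replicate block (0 points), which rest on 3 pairs and 1 pair. Hashtag UMIs of hCD2+ pairs over single T cells lost the call with means over droplets (20675, permutation adjusted p = 0.269). With the replicate block hashtag UMIs passed against single APCs (5087 for hCD2+ and 2813 for hCD2-). The second hashtag's percent in hCD2+ pairs also passed against single APCs (-0.378 points), where the main permutation test had not (adjusted p = 0.157). Against single T cells it passed in neither. All these droplets were chosen to have 1 assigned hashtag. The tdTomato ratio lost its call under the block (0.247, exact sign-flip p = 0.0625, and 0.197 to 0.315 without 1 mouse each).

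The count of genes called between the fractions was unstable. Against 184 it was 288 with DESeq2, 101 without the gene filter, 67 with at least 10 pairs per mouse, 24 with the replicate block and 70 to 322 without 1 mouse each. It fell to 70 without mouse 8, 82 without mouse 5, 87 without mouse 6, 91 without mouse 2, 99 without mouse 7, 102 without mouse 1, 115 without mouse 4 and 118 without mouse 3, and came to 322 without mouse 11. Under the block Plxdc2 and Polr2l kept their call, 2 of 21 named genes. Without mouse 8, 16 of the 21 lost it, without mouse 1, 15, and with at least 10 pairs per mouse 19, where Lyz2 turned to -0.41. The block changed no call for the share of pairs or the partner classes. The limits are the 65 hCD2+ pairs, of which 5 mice had under 5, the 1 library per fraction, and class names that rest on transcripts of mixed droplets.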
